A study of Mus musculus with 9 samples.

Results

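The genes described here are 10 enzymes that handle superoxide, peroxides, heme and quinones in the mouse heart: the glutathione peroxidase genes Gpx1, Gpx3, Gpx4 and Gpx7, the superoxide dismutase genes Sod1, Sod2 and Sod3, the catalase gene Cat, the heme oxygenase gene Hmox1 and the quinone reductase gene Nqo1. They were taken by gene symbol, and all 10 lie among the 20634 genes with deposited values and among the 15549 that passed the filter on low counts. The left ventricle of 6-month-old C57BL/6 mice was profiled by RNA-seq in 9 libraries, 3 from delta-sarcoglycan knockout (KO) mice given ifetroban, 2 from KO mice on vehicle, 2 from wild-type (WT) mice given ifetroban and 2 from WT mice on vehicle. Ifetroban, which blocks the thromboxane-prostanoid (TP) receptor, was supplied in the drinking water from weaning at 25 mg/kg/day, and vehicle was normal drinking water. All 4 groups had running wheels at intervals, and hearts were flushed with PBS at collection. Delta-sarcoglycan, encoded by Sgcd, is a membrane protein of muscle in the dystrophin complex, and its loss in mice leads to cardiomyopathy. The labels do not name the deleted exons, and they do not state whether replicates were separate animals, so p-values reflect only how far these libraries vary, which may be technical variation. KO ifetroban replicate 1 carries conflicting labels: its title and source name say ifetroban, and another of its fields says vehicle. It was grouped by its title.

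Superoxide dismutases turn superoxide into hydrogen peroxide, Sod1 mainly in the cytosol, Sod2 in the mitochondrial matrix and Sod3 outside the cell. Hydrogen peroxide is then removed by catalase, mostly in peroxisomes, and by glutathione peroxidases, which use glutathione as the reductant. Gpx1 acts in the cytosol and mitochondria, Gpx3 is secreted, Gpx4 reduces lipid peroxides within membranes and guards against ferroptosis, and Gpx7 resides in the endoplasmic reticulum. Hmox1 degrades heme to biliverdin, iron and carbon monoxide, and Nqo1 reduces quinones. Both are well-known targets of the stress-response factor NRF2, and the mitochondria of the beating muscle cell are a major source of superoxide.

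Gpx1, Gpx3 and Gpx4 are selenoproteins, in which an in-frame TGA is read as selenocysteine at the active site, while Gpx7 has a cysteine codon there. The 39 coding bases around that codon are shown, since this residue sets the first 3 apart from Gpx7 in the family. The codon is in capitals, and the bases were read on the coding strand of GENCODE M21 transcripts.
Gpx1: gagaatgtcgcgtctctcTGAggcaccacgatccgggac
Gpx3: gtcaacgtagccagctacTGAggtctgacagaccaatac
Gpx4: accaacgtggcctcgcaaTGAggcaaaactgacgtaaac
Gpx7: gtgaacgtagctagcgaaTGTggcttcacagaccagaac
The codon is number 47 in Gpx1, 73 in Gpx3, 129 in the longest annotated Gpx4 reading frame and 56 in Gpx7, and the annotation marks 1 selenocysteine in each of the first 3 and 0 in Gpx7. Against the Gpx1 window, 19 of 39 bases were identical in Gpx3, 21 in Gpx4 and 21 in Gpx7.

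Start-site windows are shown for Gpx3 and Sod2, the only members whose KO and WT libraries did not overlap over both treatments, one higher and the other lower in KO. Each runs from 250 bases before to 50 after the start of a RefSeq gene (build GRCm38.p6), and capitals mark matches to a GC box, GGGCGG on either strand.
Gpx3, chr11:54902604-54902903, plus strand: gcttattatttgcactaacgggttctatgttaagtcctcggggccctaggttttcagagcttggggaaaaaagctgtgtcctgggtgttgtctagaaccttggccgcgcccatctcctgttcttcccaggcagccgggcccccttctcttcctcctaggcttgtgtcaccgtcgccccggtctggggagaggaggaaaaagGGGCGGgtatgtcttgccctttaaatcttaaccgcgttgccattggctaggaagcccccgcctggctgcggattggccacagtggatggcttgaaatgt
Sod2, chr17:13007589-13007888, plus strand: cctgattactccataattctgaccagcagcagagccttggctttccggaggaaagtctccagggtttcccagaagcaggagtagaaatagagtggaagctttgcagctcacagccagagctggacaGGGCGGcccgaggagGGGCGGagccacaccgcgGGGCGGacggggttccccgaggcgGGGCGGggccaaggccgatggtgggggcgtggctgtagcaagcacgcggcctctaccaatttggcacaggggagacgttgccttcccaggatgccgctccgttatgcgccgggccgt
The Gpx3 window has 1 GC box and the Sod2 window has 4. RefSeq windows matched 8 of the 10 members, with none matched for Sod3 and Hmox1. These members had 11 windows, since Gpx4 has several starts. A GC box was found in 10 of the 11, all but 1 of Gpx4, and in 35.7% of the 32851 windows in the table. The core of the antioxidant response element, TGACNNNGC on either strand, was found in 1 of the 11, that of Sod1, against 12.4% of all windows, and a TATA box, TATAAA on either strand, in 2, those of Nqo1 and Sod1, against 13.6%. Within a window, the only matches that overlapped were GC boxes of Sod1, which overlapped each other. The Gpx4 windows chr10:80053315-80053614 and chr10:80053409-80053708 overlap and hold the same 2 GC boxes, so these count in both.

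Total counts per library were 21510263 to 30182955. A gene's deviation from its mean fell with transcript length in 4 libraries (WT vehicle replicate 1, both KO vehicle libraries and KO ifetroban replicate 1; Spearman's rho from -0.53 to -0.40 across 12939 genes, which are not independent replicates) and rose with it in the other 5 (0.40 to 0.44). They are called the negative-slope and positive-slope libraries here. Sgcd transcripts were present in KO at 7.30 to 13.3 CPM, against 20.9 to 23.7 CPM in 3 WT libraries and 8.36 CPM in the library labelled WT vehicle replicate 1, which thus lay within the KO range and against its label. This library has a negative slope. Sgcd was at 7.30 to 9.64 CPM in the negative-slope and 12.9 to 23.7 CPM in the positive-slope libraries. Slope and genotype therefore cannot be told apart in its low level. Sgcd measured -0.90 ± 0.25 SE on the log2 scale for KO against WT over both treatments, which did not pass by the edgeR quasi-likelihood test (adjusted p = 0.101) and passed by the DESeq2 Wald test (adjusted p = 0.0116) and in edgeR without the library labelled WT vehicle replicate 1 (-1.10, adjusted p = 0.0103). With the length-slope set as a term it measured -0.50 (adjusted p = 0.145). That library was kept as WT, so each direction between KO and WT rests in part on its label. CPM are read counts scaled to a common library size with TMM factors, changes are log2 fold changes with SE from edgeR, p-values are adjusted over all 15549 genes, and the threshold is 0.05. The 8 cardiomyocyte markers were detected in every library, at summed levels of 39423 to 46300 CPM in KO and 47332 to 51771 CPM in WT, so that the labelled tissue and its defining markers matched.

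Levels between members were compared per kilobase of transcript. Gpx4 was first, at a mean of 204 CPM per kilobase (range 152 to 260 over the 9 libraries). It was followed by Sod2 (147 ± 13.5, SD, n = 9), Sod1 (142 ± 28.9) and Gpx3 (124, range 81.7 to 178). Cat (70.3 ± 6.69) and Gpx1 (63.6 ± 16.7) came next, then Nqo1 (28.1 ± 3.42), Sod3 (15.0 ± 2.86), Hmox1 (8.94 ± 3.96) and Gpx7 (3.94 ± 0.831). Ranges of neighbours in this order were apart only between Gpx3 and Cat, Gpx1 and Nqo1, and Nqo1 and Sod3. Sod2 lay above Sod1 in 5 of 9 libraries, Sod1 above Gpx3 in 5 and Cat above Gpx1 in 6, so these neighbours had no steady order.

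**Figure D1:**
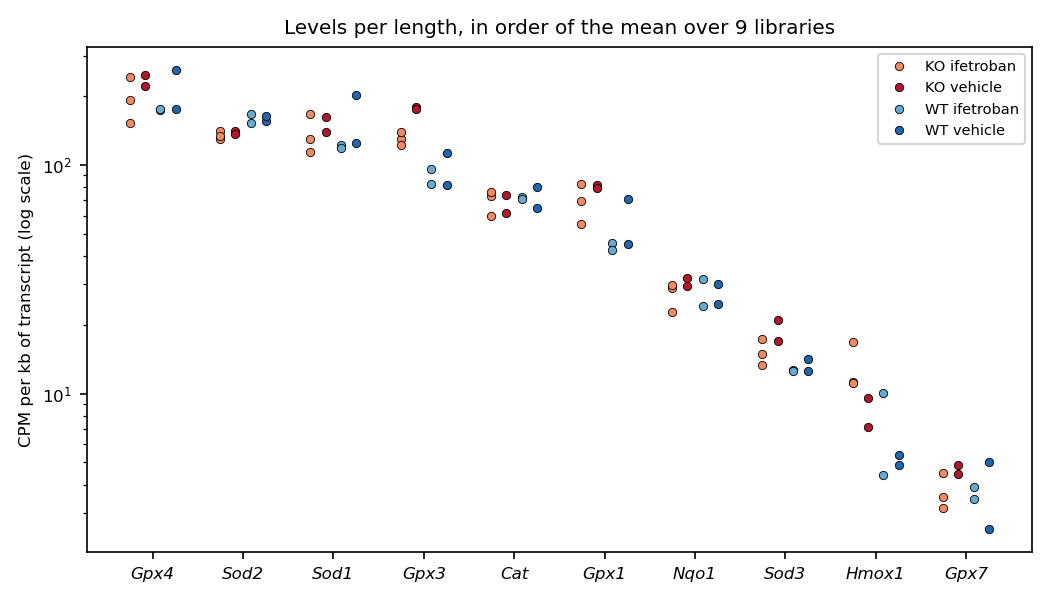
Level of each member per kilobase of transcript (TMM-scaled CPM per kilobase, log axis) in each of the 9 libraries, coloured by group, with members ordered by their mean. Gpx4 is highest at a mean of 204 and Gpx7 lowest at 3.94, and Hmox1 has the widest spread relative to its mean.

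Genotype over both treatments set 5 KO against 4 WT libraries with treatment as an additive term, and asks how loss of delta-sarcoglycan relates to the levels of these genes. Gpx3, the secreted peroxidase, rose in KO, and it was the only one of the 10 past the threshold, against 2.33% of all genes tested. Another 4 members had an unadjusted p under 0.05 without passing (Gpx1, Sod3 and Hmox1 higher in KO, Sod2 lower), so that 5 of 10 were under 0.05 unadjusted, against 16.1% of all genes. The median change of the 10 was 0.14, against -0.02 for all genes tested. The DESeq2 Wald test called all 5, against 896 of 15549 genes tested. Limma-voom called Gpx3 alone, against 311 of 15549.

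Gpx3 (mm10 chromosome 11, 54902453 to 54910377, plus strand, protein-coding) had 206, 221 and 194 CPM in KO ifetroban and 284 and 280 CPM in KO vehicle libraries, against 153 and 131 CPM in WT ifetroban and 179 and 130 CPM in WT vehicle. Every KO library was above every WT library, and the KO vehicle pair was highest. The mean was 237 ± 42.2 CPM in KO (SD, n = 5) and 148 ± 23.1 CPM in WT (SD, n = 4), and the fitted change by edgeR was 1.61-fold, or 0.69 ± 0.12 (SE) on the log2 scale, with an adjusted p of 0.0185. With each library left out in turn the change was 0.58 to 0.78, and the call was lost without WT ifetroban replicate 2 (0.68, adjusted p = 0.0858) and without KO vehicle replicate 1 (0.67, adjusted p = 0.0774). With the length-slope set as a term Gpx3 measured 0.61 (adjusted p = 0.0139). It lies on the same chromosome as Sgcd, 6.91 Mb beyond it. Of the 89 tested genes between them 0 were called, against 2.33% of all genes tested. Any effect of this position on Gpx3 was not tested.

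Gpx1, the most widely distributed family member (chromosome 9, 108338903 to 108340343, plus strand, protein-coding), had 88.6, 58.9 and 74.6 CPM in KO ifetroban and 87.8 and 85.1 CPM in KO vehicle libraries, against 48.9 and 45.3 CPM in WT ifetroban and 76.1 and 48.3 CPM in WT vehicle. WT vehicle replicate 1 lay within the KO range, and the other 3 WT libraries were below all KO libraries. The mean was 79.0 ± 12.6 CPM in KO (SD, n = 5) and 54.7 ± 14.4 CPM in WT (SD, n = 4), a log2 difference of 0.57 ± 0.15 SE that did not pass (edgeR, adjusted p = 0.0867). Without WT vehicle replicate 1 it was 0.74 and passed (adjusted p = 0.0207), and with the length-slope set as a term it was 0.37 (adjusted p = 0.0502). The fit without that library has only positive-slope WT libraries, against KO libraries of both slopes, so there genotype goes more closely with slope.

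Gpx4 and Gpx7 showed no difference past the threshold. Gpx4 (chromosome 10, 80047166 to 80056439, plus strand) ranged from 152 to 246 CPM in KO and from 172 to 259 CPM in WT, with KO and WT libraries intermingled. Its change was 0.14 ± 0.15 SE (edgeR, adjusted p = 0.684). Gpx7 (chromosome 4, 108400390 to 108406961, minus strand) was the scarcest member, at 4.07 to 6.26 CPM in KO and 3.28 to 6.46 CPM in WT, from 81 to 156 counts a library. Its change was 0.15 ± 0.20 SE (edgeR, adjusted p = 0.756). As a share of the summed per-kilobase level of the 4 peroxidases, Gpx4 made up 43.6% to 52.8% in KO and 54.3% to 58.0% in WT, without overlap, and Gpx3 28.2% to 39.7% in KO and 25.1% to 30.1% in WT, with overlap. These shares were not tested, and each also depends on the levels of the other peroxidases in the sum.

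The 3 superoxide dismutase genes differed in direction, and none passed in edgeR. Sod2, the mitochondrial enzyme (chromosome 17, 13007839 to 13018119, plus strand, protein-coding), had 537, 496 and 510 CPM in KO ifetroban and 536 and 523 CPM in KO vehicle libraries, against 583 and 640 CPM in WT ifetroban and 597 and 622 CPM in WT vehicle. All KO libraries lay below all WT libraries. The mean was 520 ± 17.7 CPM in KO (SD, n = 5) and 611 ± 25.7 CPM in WT (SD, n = 4), a log2 difference of -0.23 ± 0.07 SE that did not pass in edgeR (adjusted p = 0.161). DESeq2 called it (-0.23, adjusted p = 0.0149). Gpx3 and Sod2 were the 2 of 10 members without overlap between KO and WT, against 7% of all genes tested.

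Sod3, the extracellular dismutase (chromosome 5, 52363791 to 52371418, plus strand, protein-coding), had 55.9, 49.6 and 64.7 CPM in KO ifetroban and 78.2 and 63.6 CPM in KO vehicle libraries, against 47.4 and 46.7 CPM in WT ifetroban and 53.1 and 47.1 CPM in WT vehicle. KO vehicle replicate 1 was highest, and KO ifetroban replicate 2 lay below WT vehicle replicate 1. The mean was 62.4 ± 10.7 CPM in KO (SD, n = 5) and 48.6 ± 3.03 CPM in WT (SD, n = 4), a log2 difference of 0.37 ± 0.11 SE that did not pass in edgeR (adjusted p = 0.116) and passed in DESeq2 (adjusted p = 0.0420). Sod1, the copper-zinc enzyme of the cytosol (chromosome 16, 90220742 to 90226322, plus strand), ranged from 72.3 to 105 CPM in KO and from 75.4 to 128 CPM in WT, with broad overlap. Its change was 0.05 ± 0.16 SE (edgeR, adjusted p = 0.918). Per kilobase, Sod3 made up 5.68% ± 1.02 of the summed dismutase level in KO (SD, n = 5) and 4.15% ± 0.244 in WT (SD, n = 4), and this share was not tested.

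Catalase showed no difference past the threshold. Cat (chromosome 2, 103453849 to 103485160, minus strand) had 157 to 199 CPM in KO and 170 to 208 CPM in WT, with means of 180 ± 19.8 CPM in KO (SD, n = 5) and 188 ± 15.8 CPM in WT (SD, n = 4). The ranges overlapped, with 2 of 5 KO libraries below all WT libraries, and the change was -0.06 ± 0.11 SE (edgeR, adjusted p = 0.814).

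Of the NRF2 target pair, Hmox1 had a higher mean in KO without passing in edgeR, and Nqo1 had nearly equal means. Hmox1 (chromosome 8, 75093591 to 75100596, plus strand, protein-coding) had 26.3, 17.6 and 17.4 CPM in KO ifetroban and 15.0 and 11.2 CPM in KO vehicle libraries, against 15.7 and 6.91 CPM in WT ifetroban and 7.64 and 8.46 CPM in WT vehicle. KO ifetroban replicate 1 was highest, and WT ifetroban replicate 1 lay within the KO range. The mean was 17.5 ± 5.55 CPM in KO (SD, n = 5) and 9.69 ± 4.09 CPM in WT (SD, n = 4), a log2 difference of 0.78 ± 0.23 SE that did not pass in edgeR (adjusted p = 0.119) and passed in DESeq2 (adjusted p = 0.0237). Nqo1 (chromosome 8, 107388225 to 107403206, minus strand) had 35.4 to 49.7 CPM in KO and 37.5 to 49.2 CPM in WT, nearly the same range, with a change of 0.06 ± 0.12 SE (edgeR, adjusted p = 0.858).

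**Figure D2:**
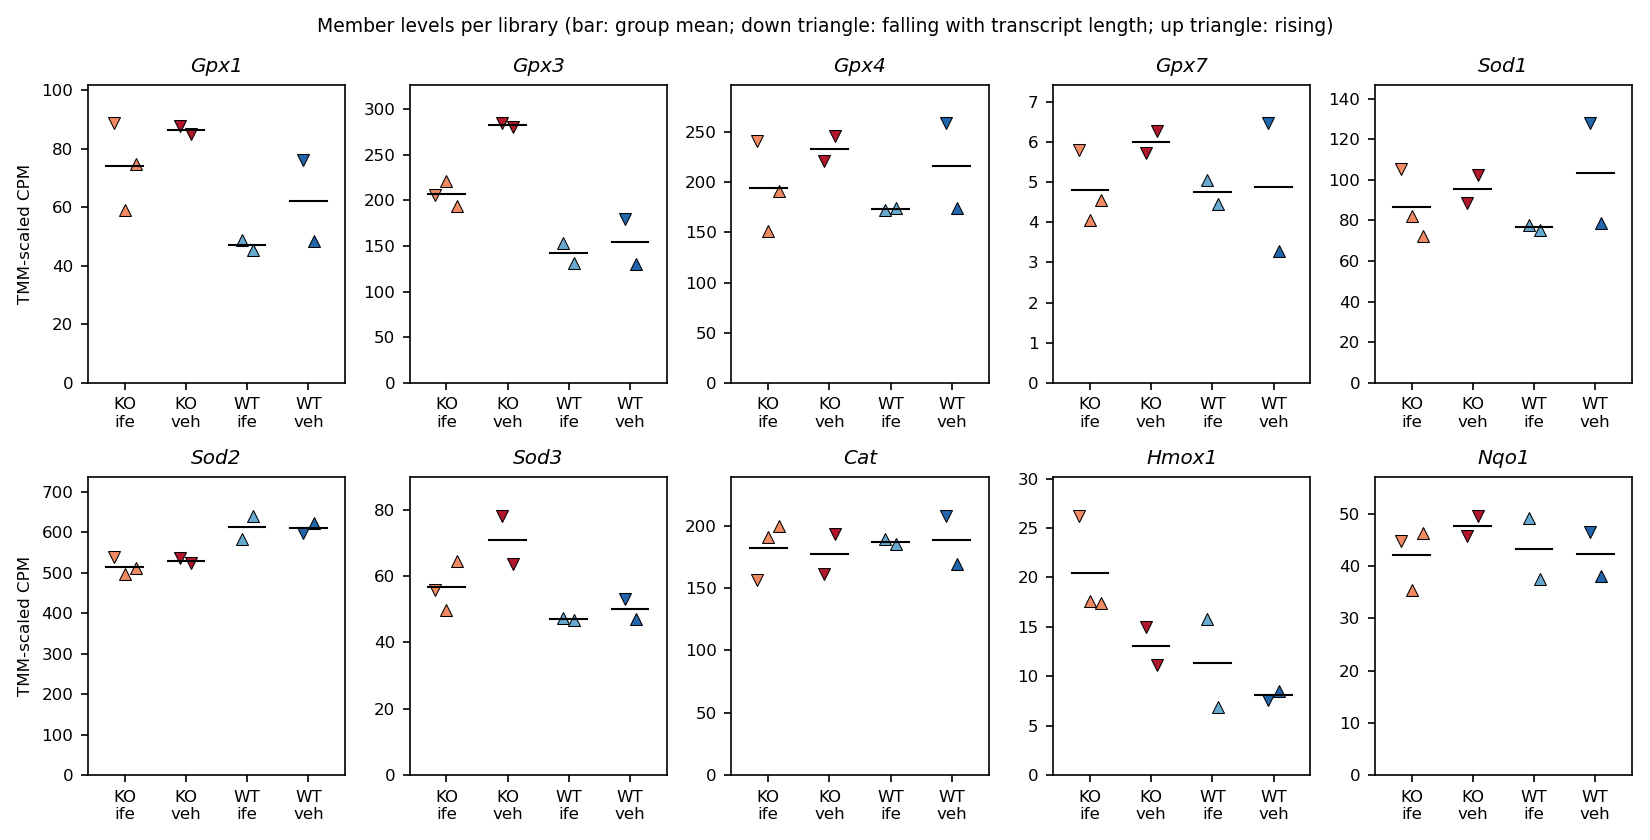
TMM-scaled CPM of each member (linear axes from 0) in the 9 libraries by group, with KO left of WT and ifetroban (ife) left of vehicle (veh). Triangles point down for negative-slope and up for positive-slope libraries, and bars are group means. Gpx3 is above the WT range in all 5 KO libraries and Sod2 below it in all 5.

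Markers of other cell types differed between the same libraries. The 8 macrophage markers summed to 400 to 493 CPM in KO and 194 to 261 CPM in WT, with 7 of 8 genes higher past the threshold. The 8 fibroblast markers summed to 1262 to 2011 CPM in KO and 888 to 1058 CPM in WT, with 5 of 8 higher past the threshold. Of all genes tested, 2.33% were past it in either direction by edgeR. The 8 cardiomyocyte markers had 0 past the threshold by edgeR, DESeq2 or limma-voom and 1 at an unadjusted p under 0.05 by edgeR, although their sums were lower in KO without overlap. The lymphocyte markers, of which 1 of 4 tested rose and Nkg7 and Cd8a were at 0 in at least 1 library, summed to 12.4 to 16.9 CPM in KO and 7.12 to 9.48 CPM in WT. Of the 6 adipocyte markers with values, 5 were at 0 in at least 1 library and 2 were tested, so their sum rests on few genes. No macrophage, fibroblast or cardiomyocyte marker was at 0 in any library, and the sums of endothelial (845 to 1060 CPM in KO, 823 to 1075 CPM in WT), smooth muscle and pericyte (977 to 1249 CPM in KO, 919 to 1212 CPM in WT), erythroid (226 to 1212 CPM in KO, 159 to 1647 CPM in WT) and adipocyte markers (354 to 442 CPM in KO, 303 to 509 CPM in WT) overlapped. The part of these markers in the levels of Gpx3, Sod3, Hmox1 and Sod2 was not tested. In whole-ventricle RNA, fewer cells of a type and less RNA per cell cannot be told apart.

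Within vehicle, KO against WT had 2 libraries a side, and Gpx3 measured 0.87 ± 0.17 SE (edgeR, adjusted p = 0.164), the largest change of the 10. No member passed, against 0.0515% of all genes, with 2 (Gpx3 and Sod3) at an unadjusted p under 0.05, against 7.9% of all genes. DESeq2 called Gpx3 (0.85, adjusted p = 0.00251), against 136 of 15549 genes tested, and limma-voom called 0, against 6. Sod3 measured 0.50 ± 0.16 SE (edgeR, adjusted p = 0.438). In KO vehicle libraries Gpx1, Gpx3, Sod3 and Hmox1 lay above both WT vehicle libraries and Sod2 below them, 5 of 10 without overlap, against 35.9% of all genes. With the length-slope set as a term Gpx3 passed in edgeR (0.78, adjusted p = 0.0323), against 118 of 15549 genes tested. In the negative-slope libraries alone it measured 0.66, where WT is 1 library assumed to vary like the KO vehicle pair.

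Within ifetroban, 3 KO libraries were set against 2 WT libraries, and Hmox1 measured 0.85 ± 0.33 SE (edgeR, adjusted p = 0.449), Gpx1 0.65 ± 0.22 (adjusted p = 0.353) and Gpx3 0.55 ± 0.16 (adjusted p = 0.250). No member passed by edgeR, DESeq2 or limma-voom, against 0.0386% of all genes by edgeR, 290 of 15549 by DESeq2 and 7 by limma-voom. At an unadjusted p under 0.05 were 4 (Gpx1, Gpx3, Sod2 and Hmox1), against 9.36% of all genes. The same 5 genes as under vehicle did not overlap, in the same directions, against 29.1% of all genes. In the positive-slope libraries alone, Gpx3 measured 0.57 (adjusted p = 0.0866), Gpx1 0.52 and Sod2 -0.26, and none passed.

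**Figure D3:**
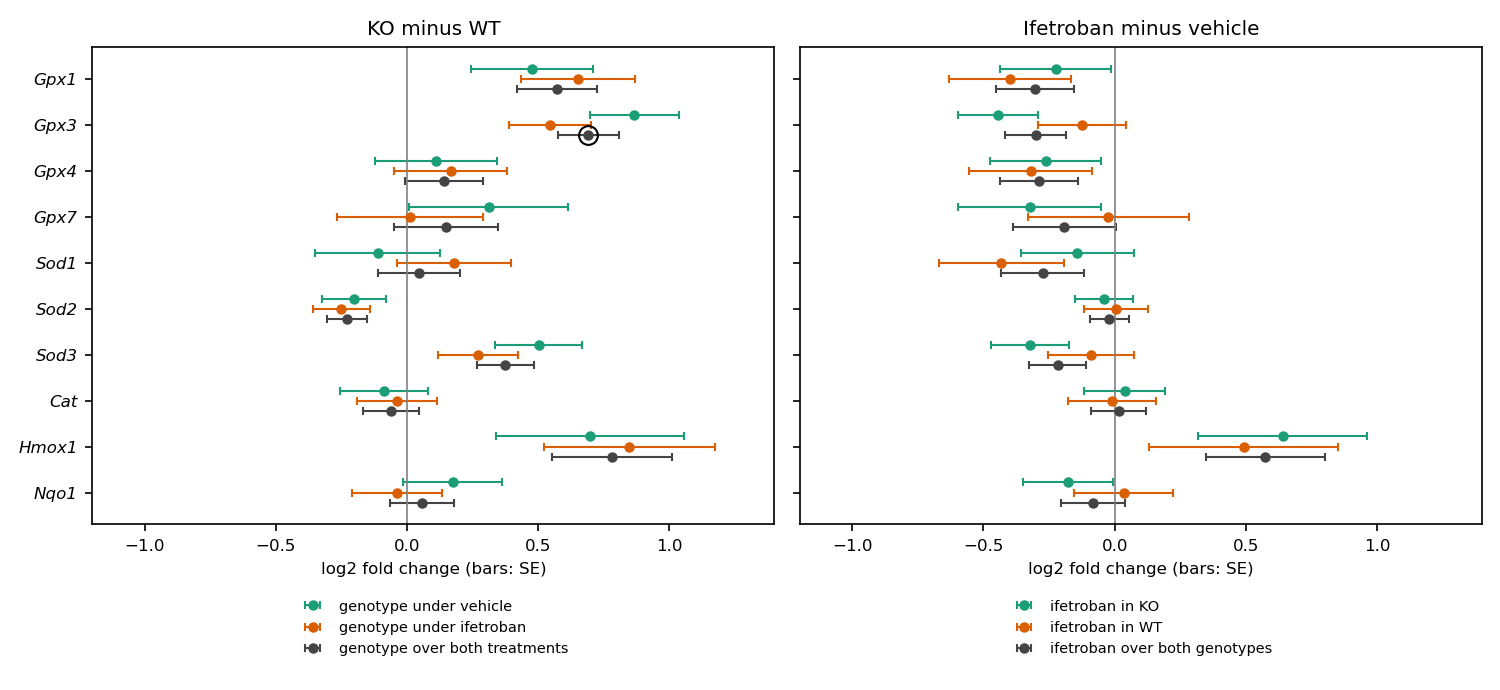
Log2 fold change of each member with its SE (edgeR), KO minus WT on the left and ifetroban minus vehicle on the right, for each single-group comparison and over both groups. The circled point, Gpx3 for genotype over both treatments at 0.69, is the one past the threshold.

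The effect of ifetroban was asked in KO and in WT, and no member passed in either. In KO, Gpx3 measured 194 to 221 CPM with ifetroban and 280 and 284 CPM with vehicle. Hmox1 measured 17.4 to 26.3 CPM with ifetroban and 11.2 and 15.0 CPM with vehicle. These 2 of 10 did not overlap between the groups, against 20.1% of all genes. The log2 change was -0.45 ± 0.15 SE for Gpx3 and 0.64 ± 0.32 SE for Hmox1 (edgeR, adjusted p = 0.862 for each). No member passed, against 0% of all genes, with 1 (Gpx3) at an unadjusted p under 0.05, against 3.96% of all genes, and with 0 called by DESeq2 or limma-voom. With KO ifetroban replicate 1, whose labels conflict, counted as vehicle, Gpx3 measured -0.31 and Hmox1 0.01. The length slope went with treatment, positive in 4 of 5 ifetroban and negative in 3 of 4 vehicle libraries. With the length-slope set as a term Gpx3 measured -0.31 and Hmox1 0.83, and neither passed.

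In WT, 0 of 10 members passed by edgeR, DESeq2 or limma-voom, and 0 had an unadjusted p under 0.05, against 0% and 2.25% of all genes by edgeR. Sod1 was the 1 member without overlap, at 77.7 and 75.4 CPM with ifetroban against 128 and 78.9 CPM with vehicle, where 31.4% of all genes did not overlap. The library at 128 CPM was the only WT library with a negative slope, and within the positive-slope libraries Sod1 measured -0.06 for ifetroban in WT. Over both genotypes, Gpx3 measured -0.30 ± 0.12 SE and Hmox1 0.57 ± 0.23 SE (edgeR, adjusted p = 0.545 for each), and with the length-slope set as a term -0.17 and 0.74, neither past the threshold. No member was free of overlap, against 1.09% of all genes. None passed by edgeR, DESeq2 or limma-voom, against 0% of all genes by edgeR, and 2 of 10 were under 0.05 unadjusted, against 7.96% of all genes. The other members measured between -0.30 and 0.02. The interaction, the ifetroban effect in KO minus that in WT, was -0.32 ± 0.23 SE for Gpx3 and 0.15 ± 0.48 SE for Hmox1 (edgeR, adjusted p = 1.00 for each). No member passed it or had an unadjusted p under 0.05, by edgeR, DESeq2 or limma-voom, against 0% and 1.92% of all genes by edgeR. The KO and WT effects share no libraries, while each ifetroban comparison shares its libraries with the genotype comparisons.

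Several members differed between the length-slope sets. Gpx1, Gpx4, Gpx7 and Sod1, with transcripts of 1072, 995, 1289 and 634 bases, were lower in all 5 positive-slope than in all 4 negative-slope libraries, against 28% of all genes without overlap in either direction. Gpx1 averaged 55.2 CPM in the positive-slope and 84.4 CPM in the negative-slope libraries, and Sod1 77.3 CPM and 106 CPM for positive and negative slope. The log2 difference, positive minus negative, was -0.63 for Gpx1, -0.48 for Gpx4, -0.51 for Gpx7, -0.44 for Sod1 and -0.52 for Gpx3 (1594 bases, with overlap). Sod2 (3824 bases) and Cat (2613 bases) measured 0.05 and 0.06. The sets were drawn from these libraries, so the differences have no test. With the set as a term, genotype over both treatments measured -0.07 for Gpx4, -0.16 for Sod1, -0.11 for Gpx7 and -0.03 for Nqo1, each of the opposite sign to the value without it and none past the threshold in either fit, while Sod2 measured -0.24 (adjusted p = 0.0664), Sod3 0.35 and Hmox1 0.64.

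**Figure D4:**
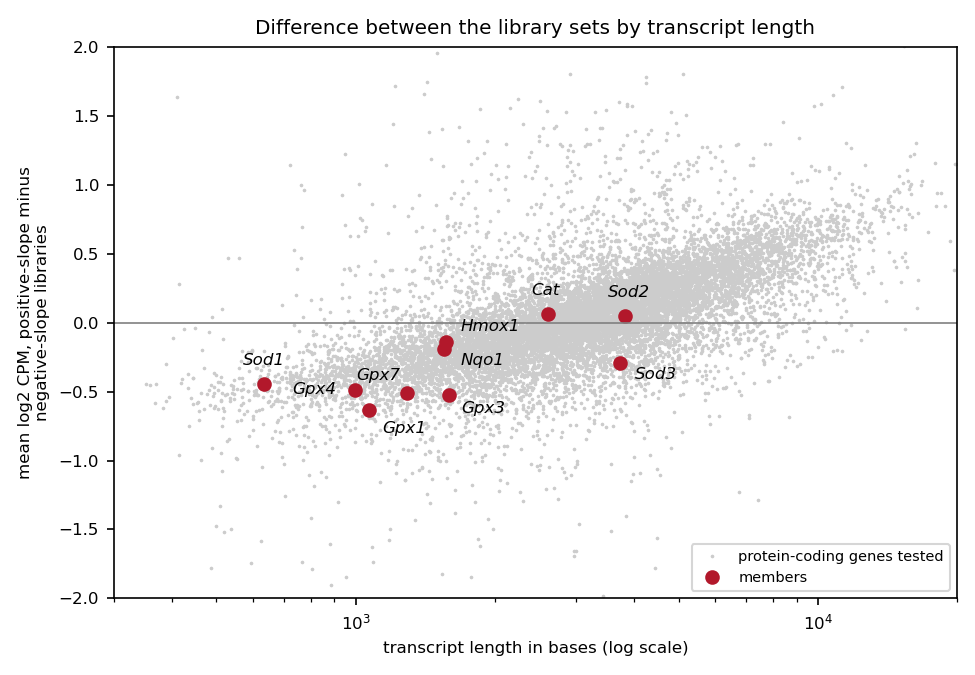
Mean log2 CPM in the 5 positive-slope minus the 4 negative-slope libraries against transcript length in bases (log axis), for tested protein-coding genes (grey) and the 10 members (red). The shorter members Sod1, Gpx4, Gpx1 and Gpx7 lie between -0.63 and -0.44, and Cat and Sod2 near 0.

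Genes around these enzymes were read from 10 lists by role, for genotype over both treatments. There 5 of 122 tested list genes passed by edgeR and limma-voom, against 2.33% of all genes by edgeR and 311 of 15549 by limma-voom. DESeq2 called 16 of the 122, against 896 of 15549. Among oxidant sources 2 of 15 tested genes rose: Cybb, the catalytic subunit of the phagocyte NADPH oxidase, and Rac2, a small GTPase that activates it. Cybb had 15.9, 17.4 and 18.2 CPM in KO ifetroban and 16.6 and 15.5 CPM in KO vehicle libraries, against 13.9 and 8.95 CPM in WT ifetroban and 8.57 and 11.5 CPM in WT vehicle. All KO libraries were above all WT libraries, with a log2 difference of 0.63 ± 0.14 SE by edgeR (adjusted p = 0.0489, kept in 2 of the 9 fits that leave out a library). Rac2 averaged 5.49 ± 1.34 CPM in KO (SD, n = 5) and 2.87 ± 0.286 CPM in WT (SD, n = 4), a change of 0.92 ± 0.19 SE (edgeR, adjusted p = 0.0320, kept in 4 of 9, and adjusted p = 0.0510 with the length-slope set as a term). Both are genes of phagocytes, whose markers were also higher in KO, and the part of those cells was not tested.

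Lrp8, a receptor that takes up the selenium carrier selenoprotein P, was 1 of 10 selenoprotein machinery genes and rose. It averaged 3.02 ± 0.816 CPM in KO (SD, n = 5) and 0.918 ± 0.173 CPM in WT (SD, n = 4), and the fitted change by edgeR was 1.66 ± 0.23 (SE) on the log2 scale with an adjusted p of 0.00709, with all KO libraries above all WT libraries. Hp, encoding the hemoglobin-binding protein haptoglobin, was 1 of 16 heme and iron genes and rose, at 4.35 ± 1.39 CPM in KO (SD, n = 5) and 0.780 ± 0.351 CPM in WT (SD, n = 4), a change of 2.56 ± 0.32 SE (edgeR, adjusted p = 0.00593), again with no overlap. Lrp8 and Hp each passed in all 9 fits that leave out a library. Ugdh, which makes UDP-glucuronate for conjugation, was 1 of 26 NRF2 and glutathione conjugation targets and rose by 0.59 ± 0.11 SE (edgeR, adjusted p = 0.0274, kept in 4 of 9), at 17.5 ± 2.53 CPM in KO (SD, n = 5) and 11.8 ± 0.908 CPM in WT (SD, n = 4). By edgeR no gene of these lists fell, against 42 of 15549 genes tested. DESeq2 called 4 of the 122 list genes lower in KO (Maob, Nqo2, Oplah and Sesn1), against 262 of 15549.

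The other 6 lists, with 55 tested genes, had 0 past the threshold by edgeR or limma-voom. DESeq2 called 4 of the 55 (G6pdx, Oplah, Sesn1 and Srxn1), against 896 of 15549 genes tested. By edgeR 11 had an unadjusted p under 0.05, against 16.1% of all genes. The gene with the smallest p was G6pdx, which supplies NADPH (0.51, adjusted p = 0.0568), among 17 genes of glutathione synthesis and recycling. It was Srxn1, which restores oxidized peroxiredoxins (0.40, adjusted p = 0.0608), among 20 genes of peroxiredoxins, thioredoxins and sestrins, and Maff (0.59, adjusted p = 0.237), a small partner of NRF2, among 9 genes of NRF2 control. It was Mt2 (1.46, adjusted p = 0.262) among 3 metallothioneins, and Gpx8 (0.27, adjusted p = 0.353), the only tested relative of the peroxidases. List medians ran from -0.06 for the dismutase and catalase partners and for the peroxiredoxin list to 0.58 for the metallothioneins, against -0.02 for all genes. In each of the other 6 comparisons, 0 of the 122 list genes passed by edgeR or limma-voom. At an unadjusted p under 0.05 by edgeR were 15 for genotype under vehicle, against 7.9% of all genes, and 17 under ifetroban, against 9.36%. For ifetroban there were 12 over both genotypes (7.96% of all genes), 4 in KO (3.96%) and 0 in WT (2.25%). The interaction had 1 (1.92%). DESeq2 called Hp under vehicle (136 of 15549 genes called), Hp and Lrp8 under ifetroban (290 called), and none of the list genes in the other 4.

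**Figure D5:**
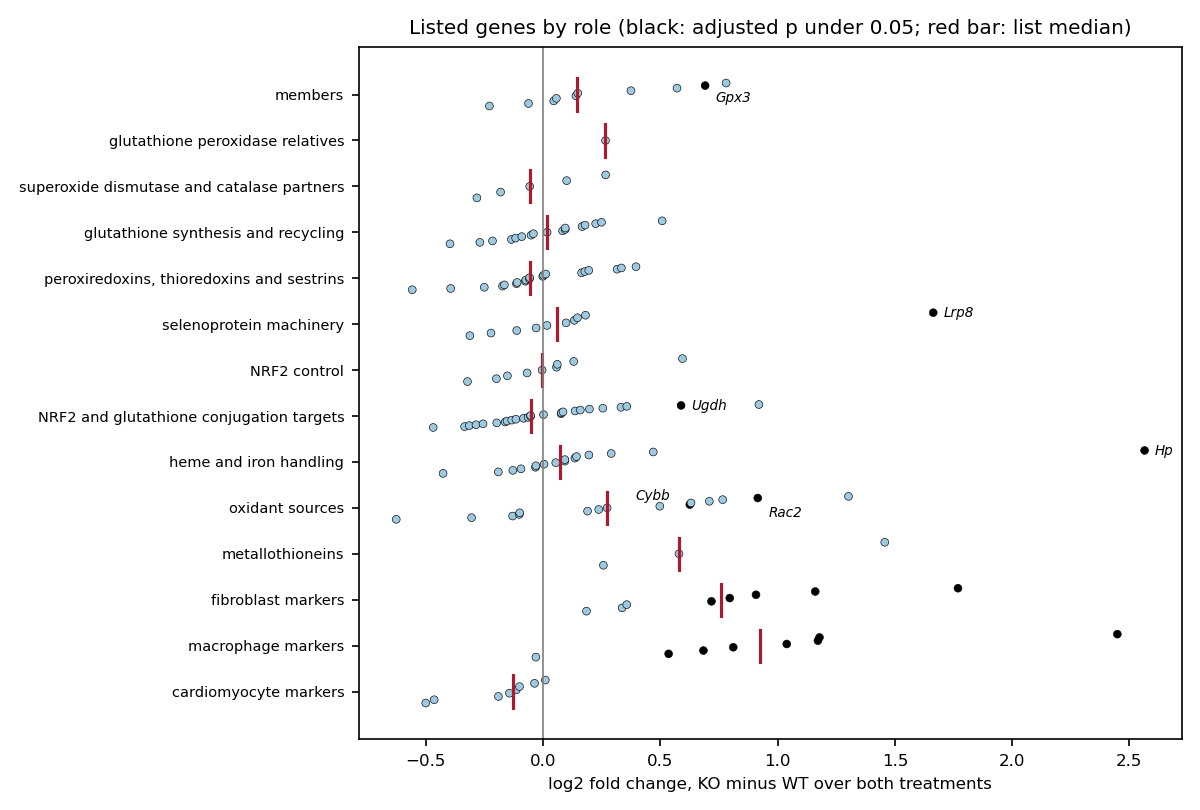
Log2 fold change, KO minus WT over both treatments (edgeR), of each tested gene by list, with the median of the list as a red bar and genes past the threshold in black. Gpx3, Lrp8, Ugdh, Hp, Rac2 and Cybb pass among the members and the 10 lists, and 5 fibroblast and 7 macrophage markers pass below them.

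Patterns most like those of the members were measured as the root-mean-square difference of centred log2 CPM over the 9 libraries, for members whose log2 CPM ranged over more than 1. These were Gpx3 (range 1.13) and Hmox1 (range 1.91). Closest to Gpx3 were Emp1 (0.12), which encodes an epithelial membrane protein, Pcolce (0.13), an enhancer of procollagen processing, and Serpine2 (0.14), a protease inhibitor. Emp1 lay at 77.0 to 109 CPM in KO and 47.1 to 64.6 CPM in WT, without overlap. Pcolce lay at 56.2 to 81.7 CPM in KO and 39.8 to 48.3 CPM in WT, also without overlap. These genes were chosen for their likeness to Gpx3 in the same libraries, so this is not a separate result. Serpine2 lay at 24.8 to 37.7 CPM in KO and 20.4 to 25.6 CPM in WT, with overlap. Closest to Hmox1 were Tnfrsf13b (0.18), a receptor of B cells, Pik3r5 (0.22), a regulatory subunit of phosphoinositide 3-kinase, and Snx20 (0.22), a sorting nexin, all between 0.513 and 3.53 CPM.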

How the data were processed

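RNA was sequenced from 9 left ventricle samples. The deposited values are expected counts per gene, and 18.8% of them are not within 0.01 of a whole number; the submitters' processing notes name bcl2fastq, STAR, Partek and mm10, with the counting rule and versions not given in the sources used here. Gene ends are given as deposited minus 1. Samples were grouped by title. Expected counts were rounded and filtered with filterByExpr (minimum count 10). The quasi-likelihood test of edgeR 4.0.16 (R 4.3.3, TMM factors, robust fits, all 9 libraries) used 4 group means for 5 comparisons and an additive model (genotype plus treatment) in the other 2, with Benjamini-Hochberg adjustment. SE is the log2 change divided by the square root of F. Alternatives were DESeq2 1.42.0 (size factors, Wald test), limma-voom 3.58.1, no or a stricter count filter (1 CPM), only the groups compared, a replicate block, the other label of KO ifetroban replicate 1, the length-slope set, 9 pseudogene rows (22.7% to 31.7% of counts) left out, and each library left out. Transcript lengths are from GENCODE M21, for the longest protein-coding transcript within the deposited interval. Gpx1, Gpx3, Gpx4 and Sod1 had values that were not whole in 1, 5, 8 and 9 of 9 libraries, so reads may be shared with near-identical copies, and their levels are uncertain to that extent; no member overlaps another deposited gene. All members are named; listed genes are named if past the threshold in any comparison, at most 3 a list, and otherwise the gene with the smallest p for genotype over both treatments, except that for the dismutase and catalase partners this gene is not reported here. The fit was tested on simulated counts. The members and lists were chosen with earlier results of these data known.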

Additional observations from a re-analysis of the deposited data

Results flagged for a closer look

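The library labelled WT vehicle replicate 1 stood apart from the other 3 WT libraries for 4 members, as the highest value with a gap to the next that was large relative to the range of the 4. Gpx1 had 76.1 CPM there and at most 48.9 CPM in the others, Gpx4 259 and 175 CPM, Sod1 128 and 78.9 CPM, and Sod3 53.1 and 47.4 CPM. It was the only WT library with a negative length slope, and its Sgcd level of 8.36 CPM lay within the KO range of 7.30 to 13.3 CPM, against 20.9 to 23.7 CPM in the other 3 WT libraries. Among the 40 combinations of a member and a pooled set of libraries, such as all WT, chance gives about 1 flag in 20. These flags all came from the same library, so they are not independent and cannot be set against that rate.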

How the results depend on the processing

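For genotype over both treatments, 1 member was past the threshold in the fit reported. The DESeq2 Wald test called 5 (Gpx1, Gpx3, Hmox1, Sod2 and Sod3), against 896 of 15549 genes tested. The fit with replicate number as a block called 3, against 550 of 15549. By edgeR these were Gpx1 at 0.56 (adjusted p = 0.0353), Gpx3 at 0.74 (adjusted p = 0.0102) and Hmox1 at 0.83 (adjusted p = 0.0399). Leaving out each library gave 0 to 2 members. The count was 0 without WT ifetroban replicate 2 (51 of 16074 genes called) or KO vehicle replicate 1 (58 of 16031). It was 2 without WT vehicle replicate 1, the only negative-slope WT library (475 of 16083). For genotype under vehicle, 0 members were called by edgeR in the fit reported. The count was 1 (Gpx3) by the DESeq2 Wald test (136 of 15549 genes called) and with the length-slope set as a term (118). The cause of these differences was not tested. The count of members stayed at 0 for the other 5 comparisons in the alternatives run, with genes called over all tested moving between 51 and 896 for genotype over both treatments (363 in the fit reported), between 2 and 247 under vehicle (8), between 2 and 290 under ifetroban (6) and between 0 and 18 for ifetroban in KO (0). Whether replicate numbers pair the samples was left undecided, and the fit reported treats the libraries as unpaired. Deviations of same-numbered libraries from their group means had correlations of -0.06 to 0.50, not all above 0.1. In groups of 2 libraries these deviations mirror each other, so the correlations cannot decide it. Groups of 2 or 3 libraries limit what could be called, and Gpx7, at 81 to 156 counts, had the lowest counts of the 10.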
